A study of Homo sapiens with 8 samples.

Results

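Interferon-stimulated genes were described in 22Rv1, a human prostate carcinoma cell line, and in lines obtained by passing it through living hosts. The members were 33 named genes, taken through all probes of the array annotated with their symbols. The annotation gave 51 probes for 32 of them, of 47320 probes on the array, and STAT2 was not analysed here. Of the 32 genes, 23 had a probe above background on at least 2 of the 8 arrays and were tested, together with all other such genes, 12244 in all. The study's 4 groups had 2 arrays each. They were the metastatic derivatives 22Rv1-M3-2 and 22Rv1-M3-1, the primary tumour derivative 22Rv1-PT and the parental line 22Rv1-Luc2, which carries in its name that of the firefly luciferase gene Luc2. Every derivative descends from 22Rv1, and each group stands for a single line. The labels name no host strain, organ, number of animals or treatment, and do not say whether the derivatives carry the reporter too. They also do not say that replicates are separate cultures or tumours, so the p-values speak for the scatter of these hybridisations alone, which may be technical.

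Interferons are secreted proteins that cells release when sensors such as RIGI and IFIH1 detect foreign RNA. Binding to their receptors activates Janus kinases, which phosphorylate STAT proteins. STAT2 together with IRF9 and a further STAT protein then enters the nucleus and binds the interferon-stimulated response element, a short DNA motif, while a dimer of the further STAT protein binds the GAS motif. The genes switched on this way encode proteins that block the entry, copying and release of viruses, and some of them feed back on the pathway as sensors and transcription factors. Many carcinoma cells transcribe a subset of these genes without added interferon.

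The promoters of the members are shown because the response element is what these genes are known to share, and the choice of members did not use sequence. RefSeq promoter windows on build GRCh38.p14, each with 250 bases before and 50 bases from a gene's start, were found for 27 of the 33 members, 36 windows in all. The core of the response element was searched on both strands as GAAA followed, after any pair of bases, by GAAAC, and copies may overlap. It was present for 17 of these 27 genes (63.0%), against 260 of the 27305 genes in the promoter table (0.952%). Counted over windows, 0.795% of all 35116 windows held it, and 21 of the 36 member windows did. Capitals mark it in windows of BST2, MX1, ISG20, OAS3, IFITM1, ISG15 and DTX3L, which were picked among those that hold it. No window was found for IFIT2, IFITM2, IRF7, MX2, OAS2 and OASL. Of these, IFITM2 and IRF7 passed a test below, so whether they carry the core was not examined. The copies in ISG15 overlap each other, at bases 138 to 148 and 144 to 154 of the window.
BST2, chr19:17405581-17405880, minus strand: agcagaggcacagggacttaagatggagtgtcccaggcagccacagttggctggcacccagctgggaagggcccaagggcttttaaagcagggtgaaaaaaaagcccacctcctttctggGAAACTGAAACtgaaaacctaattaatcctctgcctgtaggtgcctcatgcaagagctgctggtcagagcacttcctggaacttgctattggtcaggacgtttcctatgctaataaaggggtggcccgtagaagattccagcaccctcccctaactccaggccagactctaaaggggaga
MX1, chr21:41420308-41420607, plus strand: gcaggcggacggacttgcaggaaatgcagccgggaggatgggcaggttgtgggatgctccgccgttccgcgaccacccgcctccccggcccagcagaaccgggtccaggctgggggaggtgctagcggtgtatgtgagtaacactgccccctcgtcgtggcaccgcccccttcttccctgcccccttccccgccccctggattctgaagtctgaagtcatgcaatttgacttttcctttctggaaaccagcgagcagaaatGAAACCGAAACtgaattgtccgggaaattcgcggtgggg
ISG20, chr15:88638766-88639065, plus strand: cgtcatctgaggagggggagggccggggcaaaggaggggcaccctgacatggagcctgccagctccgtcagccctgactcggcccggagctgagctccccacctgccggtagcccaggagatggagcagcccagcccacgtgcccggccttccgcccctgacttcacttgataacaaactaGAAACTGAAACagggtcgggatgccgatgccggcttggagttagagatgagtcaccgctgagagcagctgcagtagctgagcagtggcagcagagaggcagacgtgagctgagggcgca
OAS3, chr12:112938224-112938523, plus strand: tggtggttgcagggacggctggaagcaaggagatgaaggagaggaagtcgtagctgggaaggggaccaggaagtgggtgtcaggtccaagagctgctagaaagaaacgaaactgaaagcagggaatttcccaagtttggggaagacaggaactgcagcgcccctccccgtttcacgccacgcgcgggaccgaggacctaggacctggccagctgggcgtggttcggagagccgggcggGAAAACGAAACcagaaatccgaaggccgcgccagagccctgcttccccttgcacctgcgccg
IFITM1, chr11:313790-314089, plus strand: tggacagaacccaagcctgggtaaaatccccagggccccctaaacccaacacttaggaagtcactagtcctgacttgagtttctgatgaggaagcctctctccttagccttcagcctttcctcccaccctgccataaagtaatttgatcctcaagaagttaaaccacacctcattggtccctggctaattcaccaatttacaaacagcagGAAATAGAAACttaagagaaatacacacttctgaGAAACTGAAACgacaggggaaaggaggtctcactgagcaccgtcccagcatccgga
ISG15, chr1:1013247-1013546, plus strand: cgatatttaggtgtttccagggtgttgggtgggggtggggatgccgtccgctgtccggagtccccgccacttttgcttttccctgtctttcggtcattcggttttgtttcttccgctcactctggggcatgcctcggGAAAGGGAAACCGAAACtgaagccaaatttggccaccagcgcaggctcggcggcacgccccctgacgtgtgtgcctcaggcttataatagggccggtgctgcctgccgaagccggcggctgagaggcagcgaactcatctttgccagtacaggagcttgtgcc
DTX3L, chr3:122564088-122564387, plus strand: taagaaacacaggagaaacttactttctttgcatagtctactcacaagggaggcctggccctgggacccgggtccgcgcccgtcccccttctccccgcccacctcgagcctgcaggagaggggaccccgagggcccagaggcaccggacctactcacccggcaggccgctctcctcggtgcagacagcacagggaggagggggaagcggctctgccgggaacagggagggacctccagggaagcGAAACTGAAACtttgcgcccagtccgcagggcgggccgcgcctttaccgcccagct

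MX1 had 3 windows in the table, of which the one shown and 1 further held the core. The core in the DTX3L window, at chr3:122564332-122564342, is the same stretch of DNA that the search found on the other strand of a PARP9 window, as the genes are divergently transcribed neighbours. IFITM1 held 2 copies and BST2, ISG20 and OAS3 held 1 each. The 10 genes with a window and no match were IFI35, IFI44L, IRF1, IRF9, OAS1, RIGI, RSAD2, SP100, STAT2 and XAF1. The GAS core, searched as TTCNNNGAA on both strands, was found for 8 of 27 members (29.6%), against 9.38% of the genes in the table. In BST2, IFITM1, IFI27 and another MX1 window a GAS match overlaps a response element match by 3 bases, in BST2 from base 115 of the window shown and in IFITM1 from base 239. A match of letters is a description of the sequence and was not related to any binding data.

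Several members lie next to each other in the genome. By the order of coding genes in RefSeq, IFI44L neighbours IFI44, PARP9 neighbours DTX3L, MX2 neighbours MX1, and OAS1, OAS3 and OAS2 form a row. IFITM2, IFITM1 and IFITM3 form another. IFIT2 and IFIT3, and IFIT1 and IFIT5, are neighbours, with 1 coding gene between IFIT3 and IFIT1. Related genes in these clusters are alike in sequence, IFITM2 and IFITM3 most of all, and their probes may not separate them fully.

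Levels are log2 intensities from the authors' deposited normalized table, in which background sits near 6.12. A probe counted as above background over 6.55. Intensities of different probes were not compared, since probes differ in how strongly they bind. Differences are on the same log2 scale, and because the background was not removed they understate the change of dim genes. Of the 23 members tested, 18 were above background on all 8 arrays, and 6 had a mean level under 7. Arrays of a group correlated across genes at 0.993 in M3-2, 0.997 in M3-1, 0.995 in PT and 0.987 in the parental line, whose arrays were the widest apart. The epithelial markers EPCAM, KRT8, KRT18, HOXB13, FOLH1 and KLK2 were above background on both arrays of every group, while the prostate-specific antigen gene KLK3 was below it on all 8.

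**Figure D1:**
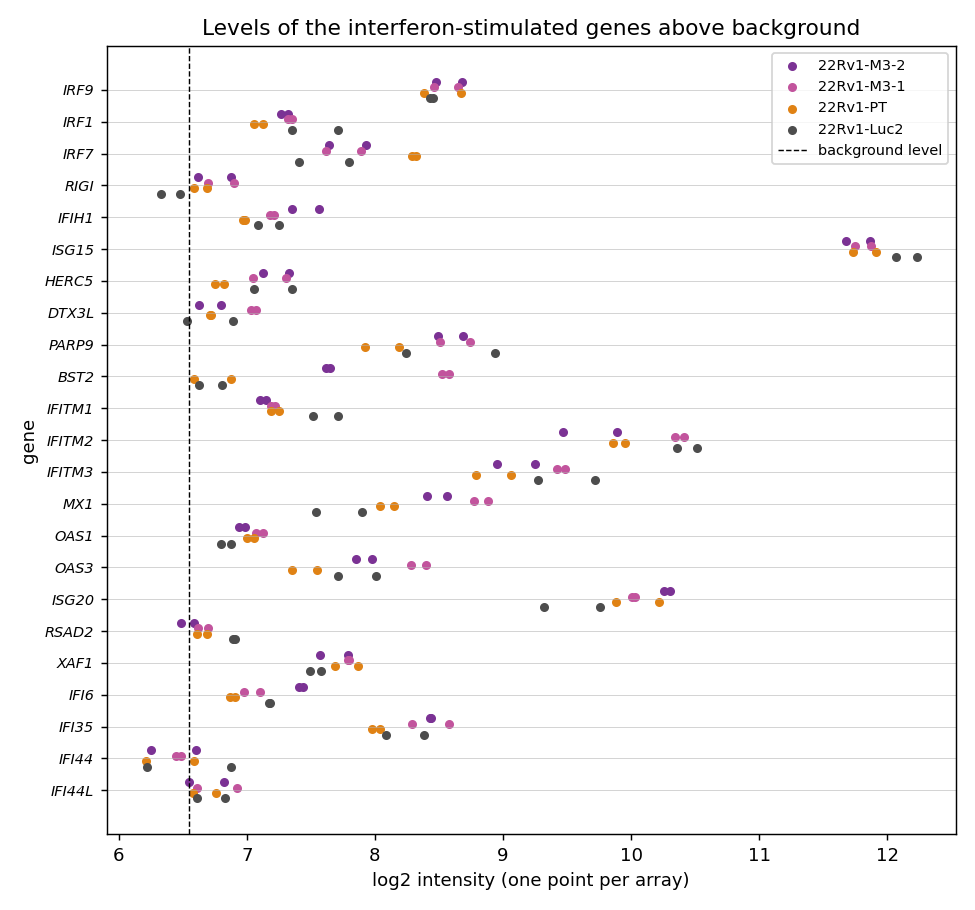
Log2 intensity (horizontal axis) of the 23 members above background, 1 row per gene and 1 point per array, with the colours for the 4 groups and a dashed line at the background level of 6.55. The points of BST2 separate widely between groups, from 6.59 to 8.58, whereas most other genes vary by less than 1 unit.

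Against the parental line, both metastatic lines had more BST2 and MX1 RNA. BST2, or tetherin, which holds budding viruses at the cell surface, was 1.88-fold higher in M3-2 and 3.55-fold higher in M3-1. MX1, a dynamin-like GTPase that blocks incoming viral particles, was 1.69-fold higher in M3-2 and 2.15-fold higher in M3-1. For the 2 lines together, 4 of 23 tested members passed an adjusted p below 0.05 in limma's moderated test, against 13.8% of all genes. BST2, MX1 and the RNA exonuclease gene ISG20 rose (6.37% of all genes did), and IFITM1, whose product hinders the fusion of viral with cell membranes, fell (7.39% of all genes). Without parental replicate 2 the count was 8. The members' median log2 difference was 0.13, against 0.00 over all genes, and 15 members had a positive difference and 8 a negative one. In bulk RNA, a change in the share of cells that express a gene and a change in RNA per cell cannot be told apart.

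Taken singly, M3-2 had 5 of 23 members past the test against the parental line (12.2% of all genes were) and M3-1 had 3 (9.93% of all genes). In M3-2, BST2, MX1 and ISG20 rose (5.90% of all genes did) and IFITM1 and IFITM2 fell (6.31%). In M3-1, BST2, MX1 and OAS3 rose (4.43% of all genes did) and 0 members fell in limma (5.50%). The count in M3-2 was 2 without M3-2 replicate 1, and that in M3-1 was 5 without parental replicate 2. The lines share the parental arrays as their control. At an unadjusted p below 0.05, 7 members were higher and 2 lower in M3-1, 9 in all, against 20.6% of all genes. In M3-2, 5 were higher and 5 lower, 10 in all, against 23.1%. For the lines together, 5 were higher and 4 lower, 9 in all, against 24.6%. Median log2 differences of the members were 0.06 in M3-2 and 0.05 in M3-1, against -0.00 and 0.00 over all genes. Neither median was stable: that of M3-2 turned to -0.06 without parental replicate 1 and -0.01 without M3-2 replicate 2 and was 0.17 without parental replicate 2, and that of M3-1 ranged between 0.02 without its replicate 2 and 0.20 without its replicate 1.

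In the primary tumour derivative, 1 member rose and 1 fell against the parental line. IRF7, a transcription factor that drives interferon genes, rose by 0.70 and IFITM2 fell by 0.53 on the log2 scale. These were 2 of 23 members, against 6.89% of all genes (3.42% rose and 3.47% fell). The median member difference was -0.19, against 0.00 over all genes, with 14 members negative and 9 positive. With only the arrays of these 2 groups in the fit, 0 members passed in limma, although with all arrays in it 12 of 23 had an unadjusted p below 0.05, 3 higher and 9 lower, against 20.1% of all genes. The count was also 0 without either PT array, 1 without either M3-1 array, 6 without parental replicate 1 and 4 without parental replicate 2.

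The metastatic lines differed from the primary tumour derivative in 7 of 23 members, against 11.8% of all genes. BST2, MX1, OAS3, IFI35, HERC5 and IFI6 were higher than in PT, 6 members against 5.34% of all genes in that direction. IRF7 was lower, against 6.44%. Positive differences were found for 18 members and negative ones for 5, with a median of 0.13 against -0.01 over all genes. The count depended on single arrays: it was 1 without PT replicate 1, 2 without PT replicate 2, 2 without M3-1 replicate 1, 4 without M3-1 replicate 2 and 3 without M3-2 replicate 1. BST2 alone passed in every one of the 18 alternative settings of this comparison. Of the 7 members, only BST2 and MX1 also passed in the metastatic lines together against the parental line. The log2 differences there were 0.27 for OAS3, 0.20 for IFI35, -0.001 for HERC5, 0.06 for IFI6 and 0.16 for IRF7.

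Between the metastatic lines, BST2 and IFITM2 were lower in M3-2 than in M3-1. They were 2 of 23 members, against 2.47% of all genes (1.05% were lower and 1.41% higher). BST2 fell by 0.91 and IFITM2 fell by 0.70 on the log2 scale. The median member difference was -0.05, against -0.01 over all genes. Leaving out M3-1 replicate 2 gave a count of 0. Leaving out M3-1 replicate 1 gave 1, as did leaving out the first replicate of M3-2.

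**Figure D2:**
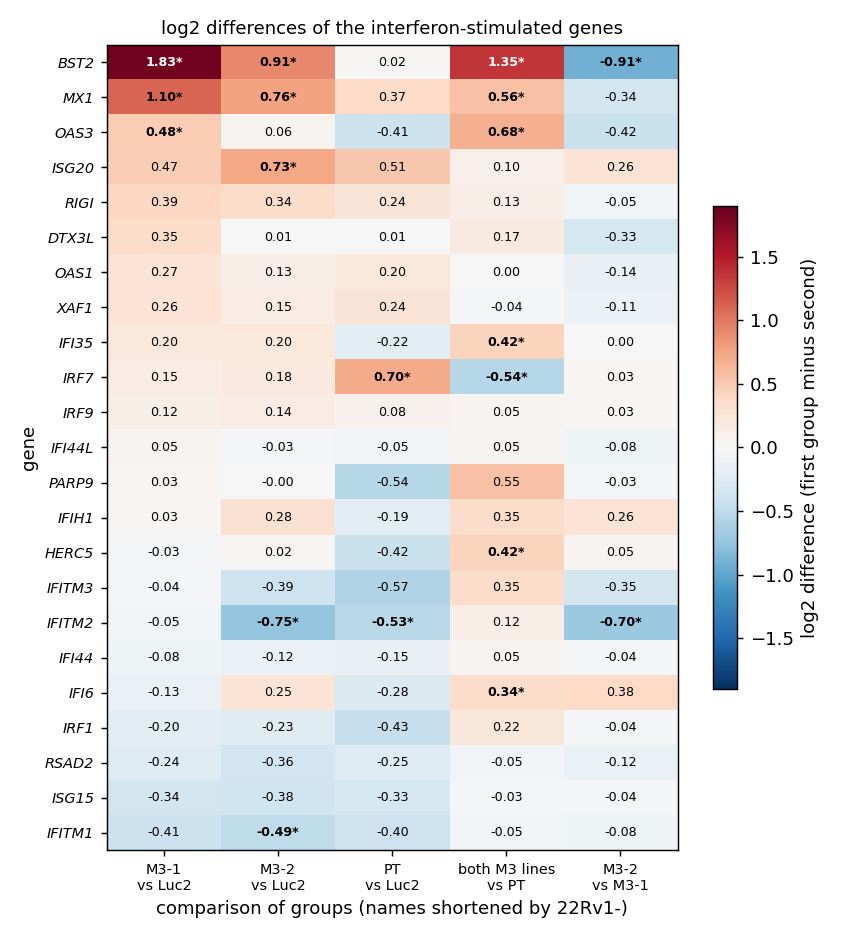
Log2 differences of the 23 tested members (rows) in 5 comparisons (columns), first group minus second, in red where higher and blue where lower in the first group. Bold values with an asterisk had an adjusted p below 0.05. BST2 and MX1 stand at the top with 1.83 and 1.10 in M3-1 against the parental line. PARP9 has opposite signs in the primary tumour column (-0.54) and the column of the metastatic lines against it (0.55), without passing in either. PT is the first group in one and the reference in the other, so a gene low in PT alone changes sign.

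Among the transcription factors, IRF7 stood apart in the primary tumour. Its level was 7.64 and 7.93 in M3-2, 7.62 and 7.89 in M3-1, 8.29 and 8.32 in PT, and 7.80 and 7.41 in the parental line. Both PT arrays lay above the other 6. IRF7 was 1.63-fold higher in PT than in the parental line (log2 difference 0.70, SE 0.16, adjusted p = 0.0163, limma), and lower in the metastatic lines than in PT (log2 difference -0.54, SE 0.14, adjusted p = 0.0213). A second, dimmer IRF7 probe gave 7.01 and 6.74 in M3-2, 6.84 and 6.70 in M3-1, 7.31 and 7.08 in PT, and 6.59 and 6.45 in the parental line. That probe also rose in PT, by 0.68 (adjusted p = 0.0121 over all probes), while its difference of -0.38 between the metastatic lines and PT did not pass (0.0724). A further IRF7 probe, from another transcript record, was not above background on any array. The rise in PT did not pass without parental replicate 2 (0.50, adjusted p = 0.0613) or without either PT array (0.0976 and 0.109), nor with only the arrays of both groups in the fit (0.0544). The fall in the metastatic lines did not pass without PT replicate 1 (0.138), PT replicate 2 (0.158), M3-1 replicate 1 (0.103) or M3-2 replicate 1 (0.0788).

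The other regulators, IRF9 and IRF1, passed in no comparison. IRF9, the DNA-binding partner of STAT2, had levels of 8.68 and 8.48 in M3-2, 8.46 and 8.65 in M3-1, 8.38 and 8.67 in PT, and 8.43 and 8.45 in the parental line. The derivatives overlapped with each other, both metastatic lines lay just above the parental arrays, and no comparison of IRF9 passed. IRF1, a transcription factor that interferon gamma induces, had levels of 7.32 and 7.27 in M3-2, 7.35 and 7.32 in M3-1, 7.13 and 7.06 in PT, and 7.71 and 7.35 in the parental line. Its lowest arrays were those of PT, and the difference from the parental line was -0.43 (SE 0.14, adjusted p = 0.0833, limma), which did not pass.

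Neither RNA sensor passed in any comparison. RIGI, which detects short RNA with triphosphate ends, had levels of 6.62 and 6.88 in M3-2, 6.70 and 6.90 in M3-1, 6.69 and 6.59 in PT, and 6.33 and 6.48 in the parental line, where it was not above background. Every derivative array lay above both parental arrays and not far above background. The metastatic lines were at least 1.17-fold higher than the parental line, which did not pass (adjusted p = 0.0602, limma). IFIH1, also called MDA5, which detects long double-stranded RNA, had levels of 7.56 and 7.35 in M3-2, 7.21 and 7.18 in M3-1, 6.97 and 6.99 in PT, and 7.09 and 7.25 in the parental line. It was lowest in PT, and the metastatic lines differed from PT by 0.35 (SE 0.11, adjusted p = 0.0601).

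ISG15 is a ubiquitin-like protein that cells attach to other proteins, and HERC5 is the main human ligase for it. ISG15 was well above background throughout, at 11.68 and 11.86 in M3-2, 11.87 and 11.75 in M3-1, 11.73 and 11.91 in PT, and 12.23 and 12.07 in the parental line. Both parental arrays were above the other 6, yet no comparison passed. The metastatic lines differed from the parental line by -0.36 (SE 0.12, adjusted p = 0.0554, limma). HERC5 had levels of 7.13 and 7.33 in M3-2, 7.05 and 7.31 in M3-1, 6.75 and 6.82 in PT, and 7.06 and 7.35 in the parental line. It was lowest in PT, with the other groups overlapping, and the metastatic lines were 1.34-fold higher than PT (log2 difference 0.42, SE 0.13, adjusted p = 0.0473). HERC5 did not pass in 9 of 18 other settings, including every setting that left out 1 of the 6 arrays compared (0.0591 to 0.302).

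DTX3L, a ubiquitin ligase, and PARP9, an ADP-ribosyltransferase, work as a complex and share a promoter region. DTX3L had levels of 6.63 and 6.80 in M3-2, 7.03 and 7.07 in M3-1, 6.72 and 6.71 in PT, and 6.53 and 6.89 in the parental line, so that M3-1 was highest. No comparison of DTX3L passed. PARP9 had levels of 8.49 and 8.69 in M3-2, 8.74 and 8.51 in M3-1, 7.92 and 8.19 in PT, and 8.24 and 8.94 in the parental line. Its parental arrays were 0.70 apart, the metastatic arrays lay above those of PT, and that difference was 0.55 (SE 0.17, adjusted p = 0.0507, limma). A second PARP9 probe, for the same transcript record, had levels of 8.76 and 8.60 in M3-2, 8.26 and 8.40 in M3-1, 7.99 and 8.02 in PT, and 8.15 and 8.31 in the parental line. Tested among all probes, it rose in the metastatic lines against PT by 0.50 (SE 0.11, adjusted p = 0.0120) and in M3-2 against the parental line by 0.45 (adjusted p = 0.0389). Its levels in M3-2 and M3-1 did not overlap, whereas those of the first probe did.

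BST2 had the widest range of all tested members. Its level was 7.65 and 7.62 in M3-2, 8.52 and 8.58 in M3-1, 6.88 and 6.59 in PT, and 6.81 and 6.63 in the parental line. The groups formed 3 steps, with M3-1 above M3-2 and both above PT and the parental line, which overlapped close to background. The mean was 7.63 ± 0.02 in M3-2 and 8.55 ± 0.04 in M3-1, against 6.72 ± 0.13 in the parental line (SD, n = 2 each). The log2 difference from the parental line was 0.91 in M3-2 (SE 0.14, adjusted p = 0.000366, limma) and 1.83 in M3-1 (SE 0.14, adjusted p = 7.7e-07). M3-2 was 1.88-fold lower than M3-1 (log2 difference -0.91, adjusted p = 0.00188). PT differed from the parental line by 0.02. Calls of BST2 against the parental line and against PT passed in all 18 other settings, and the call between M3-2 and M3-1 in 17, the exception being without M3-1 replicate 2 (adjusted p = 0.0535).

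The IFITM genes encode small membrane proteins that act at virus entry. IFITM2 was measured at 9.47 and 9.89 in M3-2, 10.34 and 10.41 in M3-1, 9.86 and 9.95 in PT, and 10.51 and 10.36 in the parental line. M3-1 overlapped with the parental line, and M3-2 overlapped with PT at a lower level. IFITM2 was 1.69-fold lower in M3-2 than in the parental line (log2 difference -0.75, SE 0.15, adjusted p = 0.00318, limma) and 1.62-fold lower in M3-2 than in M3-1 (adjusted p = 0.0191). The arrays of M3-2 were 0.42 apart, and without M3-2 replicate 1 neither difference passed (adjusted p = 0.0543 and 0.286). The difference between the metastatic lines also did not pass without M3-1 replicate 1 (0.178) or replicate 2 (0.255). In PT it was 1.44-fold lower than in the parental line (adjusted p = 0.0475), and 10 of 18 other settings lifted this above the threshold. Those that left out an array were without PT replicate 1 (0.279) or 2 (0.154), without either M3-1 array (0.0983 each) and without parental replicate 1 (0.0918).

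IFITM3 had levels of 9.25 and 8.95 in M3-2, 9.48 and 9.42 in M3-1, 8.79 and 9.06 in PT, and 9.72 and 9.27 in the parental line. M3-2 and PT again had the lowest arrays, but no comparison passed, and PT differed from the parental line by -0.57 (SE 0.17, adjusted p = 0.0586, limma). IFITM1 had levels of 7.15 and 7.10 in M3-2, 7.19 and 7.22 in M3-1, 7.25 and 7.19 in PT, and 7.71 and 7.52 in the parental line. All 6 derivative arrays lay below both parental arrays. IFITM1 fell by 0.45 in the metastatic lines together (SE 0.11, adjusted p = 0.0121) and by 0.49 in M3-2 (adjusted p = 0.0185), while the differences of -0.41 in M3-1 (adjusted p = 0.0555) and -0.40 in PT (0.0786) did not pass. Without parental replicate 1, neither the fall in both lines (0.0645) nor that in M3-2 (0.0638) passed, and the first also did not pass without M3-1 replicate 1 (0.0563). The fall in M3-2 did not pass without M3-2 replicate 1 (0.0712) or replicate 2 (0.0917), or with only the arrays compared (0.0956). With array weights neither fall passed (0.0533 in both lines and 0.0690 in M3-2).

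MX1 had levels of 8.41 and 8.56 in M3-2, 8.88 and 8.77 in M3-1, 8.04 and 8.15 in PT, and 7.90 and 7.54 in the parental line. No group overlapped with another, with M3-1 highest and then M3-2, PT and the parental line. Relative to the parental line MX1 rose by 0.76 in M3-2 (SE 0.14, adjusted p = 0.00251, limma) and by 1.10 in M3-1 (SE 0.14, adjusted p = 0.000149). Relative to PT it was 1.48-fold higher in the metastatic lines (log2 difference 0.56, SE 0.12, adjusted p = 0.00913), which did not pass without PT replicate 1 (0.133), PT replicate 2 (0.0548) or M3-1 replicate 1 (0.0508). Against the parental line it passed in all 18 other settings, in each metastatic line. The difference of -0.34 between M3-2 and M3-1 and that of 0.37 between PT and the parental line did not pass. MX2, its neighbour and a restriction factor of retroviruses, was not above background on any array.

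**Figure D3:**
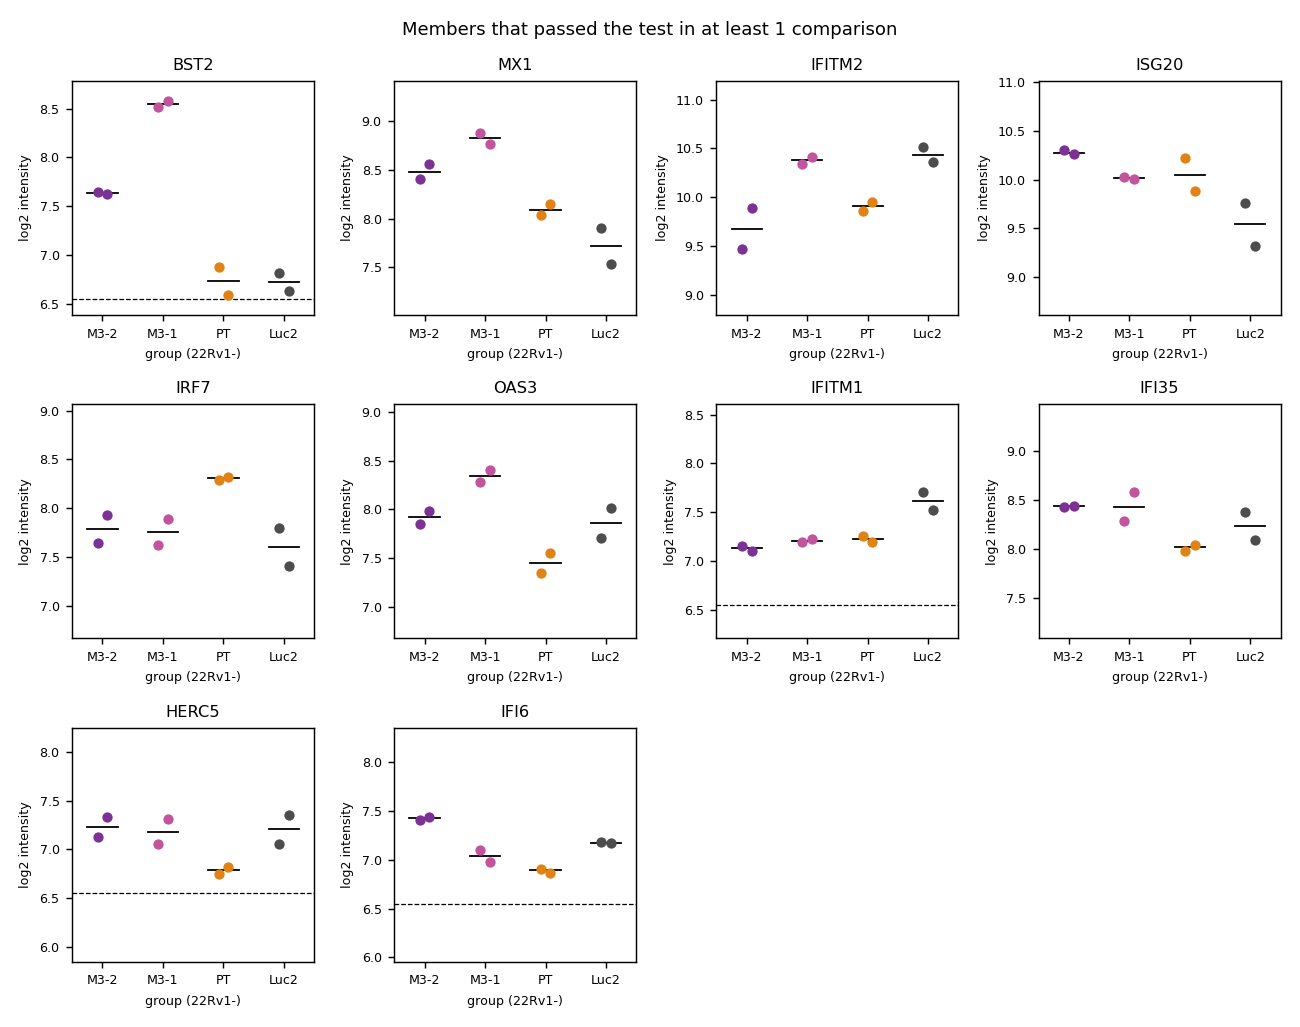
Log2 intensity of the 10 members that passed in at least 1 of 6 comparisons, with a point per array, a line at each group's mean and a dashed line at the background level where it falls in the panel. BST2 and MX1 are highest in M3-1 and next in M3-2, IRF7 is highest in PT, and IFITM1 is highest in the parental line. The share of all genes that passed in at least 1 of the comparisons was not computed.

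The oligoadenylate synthetases make the messenger that activates the RNA-degrading enzyme RNase L. A dimmer OAS3 probe was not above background on any array. The brighter OAS3 probe had levels of 7.85 and 7.98 in M3-2, 8.28 and 8.40 in M3-1, 7.35 and 7.55 in PT, and 7.71 and 8.01 in the parental line. M3-1 was highest and PT lowest, and M3-2 overlapped with the parental line. The metastatic lines were 1.60-fold higher than PT (log2 difference 0.68, SE 0.12, adjusted p = 0.00234, limma), which did not pass without PT replicate 1 (0.0703). The rise of 0.48 in M3-1 against the parental line (adjusted p = 0.0476) ended in 12 of 18 other settings, including each of the 7 that left out an array other than parental replicate 2. OAS1 had levels of 6.99 and 6.94 in M3-2, 7.07 and 7.13 in M3-1, 7.06 and 7.0 in PT, and 6.80 and 6.88 in the parental line, and no comparison passed.

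Another OAS1 probe, which matches a different transcript record, had levels of 6.88 and 6.65 in M3-2, 6.34 and 6.58 in M3-1, 6.22 and 6.15 in PT, and 6.26 and 6.29 in the parental line. It was above background on both arrays of M3-2, on 1 of M3-1 and on 0 of the other groups. A further probe for that record was not above background on any array. Tested among all probes, the OAS1 probe that was above background in M3-2 was at least 1.16-fold higher there than in the parental line (log2 difference 0.49, SE 0.13, adjusted p = 0.0332, limma). That probe would not have met the filter of at least 2 arrays without M3-2, so this test is no independent support for a rise there. OAS2 and OASL, of which OASL lacks the synthase activity, were not above background. ISG20, an exonuclease that degrades RNA, had levels of 10.30 and 10.26 in M3-2, 10.03 and 10.01 in M3-1, 10.22 and 9.88 in PT, and 9.76 and 9.32 in the parental line. All derivative arrays were above the parental ones. ISG20 was 1.66-fold higher in M3-2 than in the parental line (log2 difference 0.73, SE 0.16, adjusted p = 0.0070), whereas the differences of 0.47 in M3-1 and 0.51 in PT did not pass. The rise in M3-2 did not pass without M3-2 replicate 1 (0.0636), and that of the metastatic lines together, 0.60, did not pass without parental replicate 2 (0.39, adjusted p = 0.0767).

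The probes for RNA of the IFIT genes, whose proteins bind foreign RNA ends, gave no signal above background. IFIT1, IFIT2, IFIT3 and IFIT5, together with IFI27, MX2, OAS2, OASL and the nuclear body gene SP100, make up the 9 members that had no probe above background on 2 arrays. Their 18 probes ranged from 5.70 to 6.55 over all 8 arrays, and 0 of these values exceeded the background level. The IFIT genes and MX2 are among those that respond most to added interferon in many human cells. No fold is given for them, since both sides of any comparison lie at background.

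Of the remaining members, IFI35, a partner of the protein NMI, and IFI6, a small membrane protein that slows cell death, passed against PT. IFI35 had levels of 8.43 and 8.44 in M3-2, 8.29 and 8.58 in M3-1, 7.98 and 8.04 in PT, and 8.38 and 8.09 in the parental line. Both PT arrays lay below the other 6, and the difference between the metastatic lines and PT was 0.42 (SE 0.12, adjusted p = 0.0420, limma). It did not pass without any 1 of the 6 arrays compared, at adjusted p-values from 0.0521 to 0.274. IFI6 had levels of 7.41 and 7.44 in M3-2, 7.10 and 6.98 in M3-1, 6.91 and 6.87 in PT, and 7.18 and 7.17 in the parental line. M3-2 was above and PT below the others, and the metastatic lines differed from PT by 0.34 (SE 0.10, adjusted p = 0.04996). A second IFI6 probe did not show this, with a difference of 0.02, and with the mean of both probes the difference was 0.18 (adjusted p = 0.291). IFI6 also did not pass when any 1 of the 6 arrays compared was left out (0.0864 to 0.282).

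RSAD2, or viperin, which makes a nucleotide that stops RNA synthesis, had levels of 6.59 and 6.49 in M3-2, 6.62 and 6.70 in M3-1, 6.61 and 6.69 in PT, and 6.91 and 6.89 in the parental line. All values were close to background, the parental arrays were the highest, and no comparison passed. XAF1, which binds the apoptosis inhibitor XIAP, lay between 7.49 and 7.87 on its brighter probe, with PT replicate 1 highest, and between 6.62 and 7.12 on a dimmer one, with both PT arrays lowest. It passed on neither. IFI44 was above background on 3 of 8 arrays, with no more than 1 in any group. By their brightest probe, 13 tested members passed in no comparison, with log2 differences from -0.57 to 0.55. The share of all genes that passed in none was not computed. Second probes did pass for PARP9, OAS1 and IFI44L. Those of OAS1 and IFI44L would not have met the filter without the group in which they were highest.

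IFI44L was measured by 2 probes that differed. The brighter had levels of 6.55 and 6.82 in M3-2, 6.61 and 6.92 in M3-1, 6.76 and 6.58 in PT, and 6.61 and 6.83 in the parental line, with all groups overlapping. The dimmer, which was designed on the gene's RefSeq transcript and the brighter on another record, had levels of 6.36 and 6.43 in M3-2, 6.85 and 6.78 in M3-1, 6.15 and 6.08 in PT, and 6.09 and 6.08 in the parental line. It was above background in M3-1 only. Tested among all probes, it was at least 1.2-fold higher in M3-1 than in the parental line (log2 difference 0.73, SE 0.12, adjusted p = 0.00151, limma). The probe met the filter of at least 2 arrays only through M3-1, so this test is no independent support for a rise there. The other groups, all below background, are given no order.

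**Figure D4:**
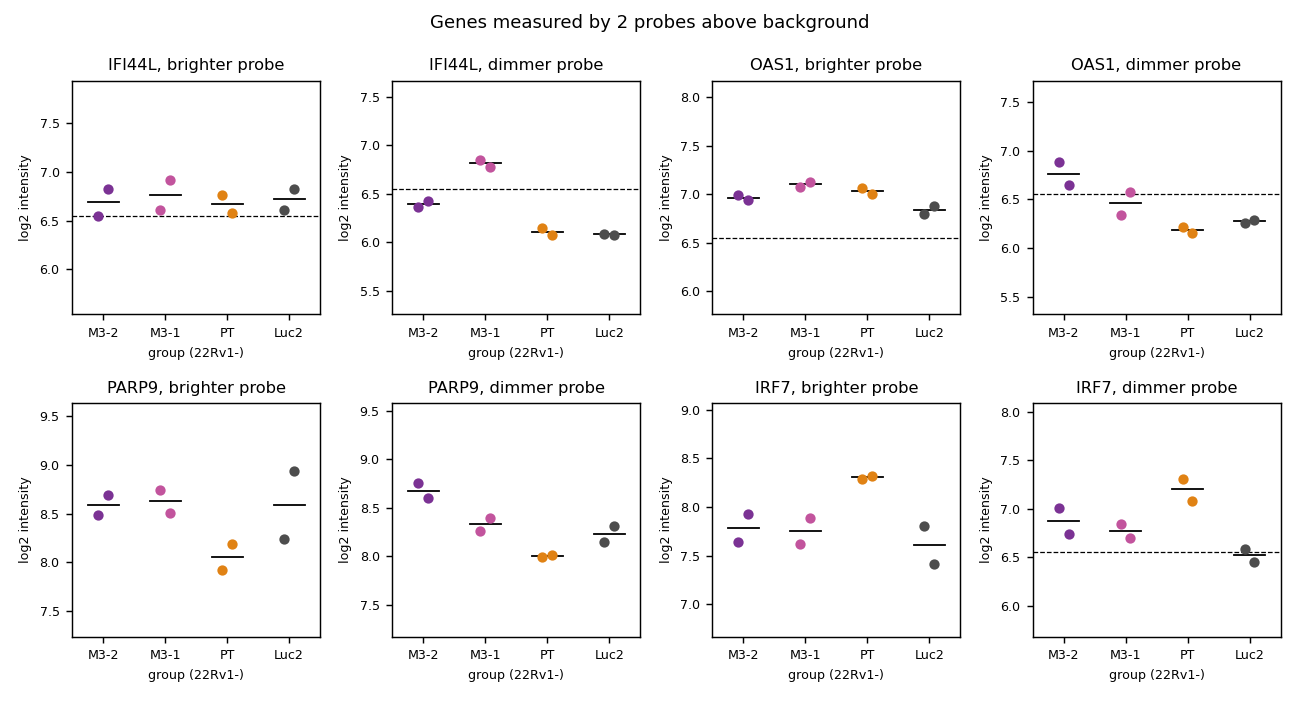
Log2 intensity of the genes IFI44L, OAS1, PARP9 and IRF7, each on 2 probes above background, with a point per array, a line at each group's mean and a dashed line at the background level. The dimmer IFI44L probe is above background in M3-1 alone, the dimmer OAS1 probe on both arrays of M3-2 and 1 of M3-1, and both IRF7 probes are highest in PT.

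Genes of the pathway other than the members were also examined. The probes of 8 interferon genes, IFNA1, IFNB1, IFNE, IFNG, IFNK, IFNL1, IFNL2 and IFNL3, were below 6.55 on both arrays of every group. Of 10 receptor, Janus kinase and STAT genes on the array, 9 were above background. STAT3 rose in PT against the parental line by 0.71 (SE 0.15, adjusted p = 0.00988, limma), where 3.42% of all genes rose. None of the 9 passed in another comparison. The level of STAT3 was 9.35 and 9.37 in M3-2, 9.04 and 9.28 in M3-1, 9.72 and 9.51 in PT, and 9.08 and 8.74 in the parental line. A list of 14 genes held sensors, adaptors and induction factors, and also IRF2BP1. It was chosen with earlier results of these data known. Of the 14, 10 were above background and 1 passed. This was IRF2BP1, a co-repressor of IRF2, which fell by 0.65 in the metastatic lines against PT (SE 0.11, adjusted p = 0.00181, limma). In that comparison 6.44% of all genes fell. Of 9 negative regulators 8 were above background and 0 passed in limma in any comparison, beside 2.47% to 13.8% of all genes. At most 2 had an unadjusted p below 0.05 in a comparison, beside 10.3% to 24.6% of all genes.

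A list of 30 further interferon-stimulated genes had 19 above background. Against PT, 5 of 19 rose in the metastatic lines, beside 5.34% of all genes that rose. Against the parental line, 1 of 19 rose in M3-2 (5.90% of all genes did) and 2 of 19 in M3-1 (4.43%), and in PT 1 of 19 fell (3.47%). The share in M3-2 is near that of all genes. PARP14, an ADP-ribosyltransferase, was measured at 8.14 and 8.25 in M3-2, 8.34 and 8.25 in M3-1, 7.73 and 7.80 in PT, and 7.69 and 7.58 in the parental line. All metastatic arrays lay above the other 4, and PARP14 rose by 0.56 in M3-2 (SE 0.12, adjusted p = 0.00770, limma) and by 0.66 in M3-1 (adjusted p = 0.00271) against the parental line. EIF2AK2, the kinase PKR that stops translation on double-stranded RNA, had levels of 9.18 and 9.10 in M3-2, 9.06 and 8.89 in M3-1, 8.58 and 8.58 in PT, and 9.35 and 9.36 in the parental line. It fell by 0.78 in PT against the parental line (SE 0.12, adjusted p = 0.00141), and was higher by 0.48 in the metastatic lines than in PT (adjusted p = 0.00918). TAP1, the peptide transporter of antigen presentation, rose in M3-1 against the parental line by 0.63 (SE 0.16, adjusted p = 0.0246), with levels of 10.09 and 10.09 in M3-1 and 9.66 and 9.26 in the parental line.

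Markers of other cells were followed beside these values. Of 10 leukocyte markers, 7 were below background on both arrays of every group, PTPRC, CD3D, CD3E and ITGAM among them, and their summed linear intensity was 1805 and 2057 in M3-2, 2136 and 2175 in M3-1, 2096 and 1990 in PT, and 2479 and 2148 in the parental line. Most of this sum came from CD68, a lysosomal protein, at 10.11 and 10.37 in M3-2, 10.43 and 10.47 in M3-1, 10.36 and 10.22 in PT, and 10.75 and 10.47 in the parental line. CD14 was also above background on every array, from 6.70 to 7.12, and LYZ on every array but M3-2 replicate 1 (6.36). All 5 endothelial markers were below background in every group. Of 6 fibroblast markers, COL1A2, COL3A1, PDGFRB and THY1 were below background in every group, and the sum was 520.0 and 485 in M3-2, 497 and 501 in M3-1, 499 and 488 in PT, and 461 and 456 in the parental line. The others were COL1A1, a collagen, which did not pass in any comparison (-0.08 in M3-2 against the parental line), and DCN, a matrix proteoglycan. DCN was higher in M3-2, at 7.27 and 7.05, than in the parental line, at 6.37 and 6.34 and so below background (adjusted p = 0.000589, limma). Among the epithelial markers, 3 of 6 rose in M3-2 against the parental line, beside 5.90% of all genes (FOLH1 by 1.48, KRT18 by 1.11 and KRT8 by 0.99). In M3-1 and in PT 2 of 6 rose, beside 4.43% and 3.42% of all genes. FOLH1 rose by 0.84 and 0.74 and KRT18 by 0.71 and 0.86. KLK2 fell by 0.37 in the metastatic lines against PT (adjusted p = 0.0462), and its difference of -0.40 in M3-1 against the parental line did not pass. The part of these markers in the results for the members was not tested.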

How the data were processed

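Total RNA was purified on columns and checked on a Bioanalyser, and biotin-labelled cRNA was hybridised to 8 Illumina arrays, per the labels' protocols. The authors deposited normalized log2 intensities for 47320 probes, which were used throughout. No label or header states the background correction or normalization, but the columns share 1 distribution to within 0.012 at any rank. The second table was not used, since its 16 columns of per-sample values match no sample's labels. Depth has no counterpart on arrays, and the number of arrays limits the precision.

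Background was set at the peak of the intensity distribution (6.12), its SD of 0.184 was estimated from the lower side, and probes over 6.55 (an upper tail of 0.01) on at least 2 arrays were kept. GEO's annotation named 30112 probes with 1 gene, 8 with several and 17200 with none. The brightest probe on average stood for a gene, which left 12244 genes. R 4.3.3 and limma 3.58.1 (lmFit, eBayes) fitted 4 group means to all 8 arrays, with 4 residual and 9.35 prior degrees of freedom. Benjamini-Hochberg adjustment ran over all genes tested, and an adjusted p below 0.05 counts as passed. Metastatic lines were averaged with equal weight. A group below background on both arrays has only a bound, and folds against it are given as "at least", relative to 6.55. The procedure was tested on simulated data.

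Members and gene lists were chosen with earlier results of these data known. Values per array are given for members that passed in any comparison, up to 16, with paralogues and neighbours, and for at most 3 genes of each further list. RefSeq promoters (GRCh38.p14) were matched by symbol. For each comparison 18 alternative settings were run. They changed the probe summary, filter, scaling, variance prior, array weights, arrays in the fit and replicate block, or left out 1 array.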

Additional observations from a re-analysis of the deposited data

Results flagged for a closer look

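Tests of the difference between derivatives ask whether their changes relative to the parental line differ. Between M3-2 and M3-1, 2 of 23 members passed, beside 2.47% of all genes. Between the metastatic lines and PT, 7 of 23 passed, beside 11.8% of all genes. BST2 passed in both. Between M3-2 and M3-1 the log2 difference was -0.91 for BST2 and -0.70 for IFITM2 (adjusted p = 0.00188 and 0.0191, limma). Their arrays did not overlap, which adds no support, since the test on these same arrays chose both genes. For BST2 both lines were above the parental line, by unequal amounts. For IFITM2 the level in M3-1 overlapped with that of the parental line and the level in M3-2 did not.

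Between the metastatic lines and PT, the log2 difference was 1.35 for BST2, 0.68 for OAS3, 0.56 for MX1, 0.42 for IFI35, 0.42 for HERC5, 0.34 for IFI6 and -0.54 for IRF7. Metastatic and PT arrays did not overlap for any of the 7, which adds no support, since the test on these same arrays chose them. As given above, leaving out single arrays ended most of these calls, with BST2 the exception.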

How the results depend on the processing

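With 2 arrays per group, counts of members past the test depended on single arrays. In M3-1 against the parental line, 3 members passed, against 5 with the replicate number as a block. Both metastatic lines together had 4, against 7 with the mean of a gene's probes and 7 with the replicate block. PT against the parental line had 2, which became 1 with each probe tested on its own, a mean level above 7, median centring or array weights, 0 with only the arrays compared, and 6 with the replicate block. The replicate block changed no other count of members by over 1.5 times. The labels do not say that replicate numbers pair arrays. Deviations of same-numbered arrays correlated at 0.523 between PT and the parental line, the comparison the block moved most, and at -0.181 to 0.173 in the other pairs of groups, so the block was not used elsewhere. Leaving out 1 array at a time gave 2 to 7 members in M3-2 against the parental line, 2 to 5 in M3-1, 3 to 8 in both lines together and 0 to 6 in PT, 1 to 10 in both lines against PT, and 0 to 2 in M3-2 against M3-1. Over all genes, leaving out an array gave 929 to 2002, 571 to 1598, 1098 to 2061, 354 to 1394, 588 to 2178 and 94 to 492 calls in the same order. Other settings moved that count by over 1.5 times with only the arrays compared (996 in M3-2 and 419 in PT against the parental line, 2178 in both lines against PT, 481 between the lines) and with array weights (1088 in both lines against the parental line, 2257 against PT, 548 between the lines). No difference called for a member on its brightest probe changed sign in any setting. The called differences of second probes and of genes other than the members were not followed through the settings. The members' median in M3-2 against the parental line, 0.06, was -0.06 to 0.17 with 1 array left out. The median in PT against the parental line, -0.19, was -0.05 with no filter on dim probes, and that of both lines against PT, 0.13, was 0.34 with a mean level above 7. Dim members, near background on several arrays, have understated differences.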
